A study of Mustela putorius furo and Mus musculus with 4 samples.

Results

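Late EOMES cells of the ferret cortex at embryonic day (E) 39 are described here. They are cells with transcripts of *EOMES*, which encodes the T-box transcription factor that marks intermediate progenitor cells (IPCs) of the cortex, and without transcripts of 4 genes of the first neurogenic step, *NEUROG1*, *NEUROG2*, *NEUROD4* and *DLL3*. A cell was a member if it had at least 750 detected genes, at least 2 *EOMES* unique molecular identifiers (UMIs, each standing for 1 captured transcript), 0 UMIs of these 4 early genes, and fewer than 3 of 7 division genes (*MKI67*, *TOP2A*, *CDK1*, *BIRC5*, *UBE2C*, *CENPF* and *NUSAP1*) detected. The rule found 109 members among 23482 ferret cells, of which 23241 passed the limit of 750 genes, and among 41602 cells of the whole series. The members were thus chosen on measured values, and the levels of *EOMES*, the early genes and the division genes in them are no finding.

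The ferret cells came from both cortical hemispheres of 1 wild type ferret embryo, dissociated with papain and captured in droplets for sequencing, with no sort described. GEO lists 2 ferret samples, and the barcodes of the table carry 2 suffixes that could not be tied to these samples, so they are called barcode sets 1 and 2. The series also holds E18 CD1 mouse cortex, labeled wild type and Smo CKO. The study gives the controls as *Smo* F/F littermates of the Smo CKO mice, in which Cre driven by the *hGFAP* promoter removes *Smo*. In both, cells at the ventricle were labeled with a dye 1 day earlier and sorted. Those cells were used only to apply the same rule, by barcode set and without a genotype.

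In the developing cortex, radial glial (RG) cells line the ventricle and give rise to IPCs, most of which divide symmetrically into pyramidal neurons. The step from RG cell to neuron is read from a cascade of transcription factors, with PAX6 in RG cells, NEUROG2 as neurons are specified, EOMES in IPCs, and NEUROD1, NEUROD2 and NEUROD6 in newborn neurons. Notch ligands such as DLL3 and DLL1 are switched on by proneural factors, while Notch signalling through HES genes keeps neighbouring cells as RG cells. Cells leaving the *EOMES* stage turn multipolar, start to extend processes and migrate toward the cortical plate, where UNC5D marks multipolar migrating neurons.

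The members made up 0.469% of the ferret cells with at least 750 genes (95% Clopper-Pearson interval 0.385 to 0.566%). Set 1 held 36 of them (0.353%, 0.248 to 0.489%) and set 2 held 73 (0.559%, 0.439 to 0.703%), so the share was higher in set 2 and the intervals overlapped. All intervals given here cover counting error only, and a single embryo gives no replicates, hence classes of cells are compared without a test. One member had a barcode that occurs in both sets, as 38 barcodes did over all cells. A member had between 1588 and 13845 UMIs with a median of 2874, and between 909 and 4496 detected genes with a median of 1529. The 109 members together held 360509 UMIs, so that 3 UMIs, the limit that a count of 0 allows, correspond to 8.32 CPM (counts scaled to 1e6 UMIs of the class).

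At the edges of the rule, 64 members had exactly 2 *EOMES* UMIs, 41 had 3 to 4 and 4 had 5 or more, with 6 as the highest number. Another 399 cells fulfilled every other condition but had 1 *EOMES* UMI. Of the members, 89 had none of the division genes, 17 had 1 and 3 had 2, and 5 cells just outside had 3. The *EOMES* cells with early genes, called early *EOMES* cells, numbered 511, and 158 of them had only 1 UMI of the 4 early genes. *EOMES* cells with 3 or more division genes, called dividing *EOMES* cells, numbered 369.

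Membership moved with depth. Among late and early *EOMES* cells together, 30.9% of those with 1000 to fewer than 2500 UMIs were late (34 of 110, 22.5 to 40.4%), against 8.51% of those with 5000 or more (12 of 141, 4.48 to 14.4%). The median depth was 2874 UMIs in late and 3446 UMIs in early cells. When the 487 early cells with at least 2000 UMIs were thinned to 2000 UMIs, 21.4% of them, or 104 cells, were expected to show no UMI of the 4 early genes. How many members were cells of this kind was not tested, and each difference between late and early cells below stands beside this dependence on depth. The late share was 22.9% in set 1, the shallower set, and 15.8% in set 2.

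**Figure D1:**
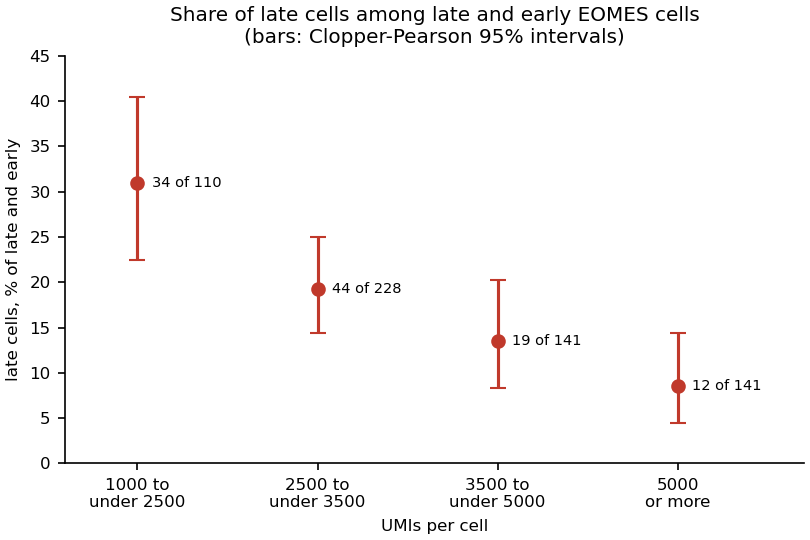
Share of late cells among late and early *EOMES* cells (y axis, %) in 4 classes of UMIs per cell (x axis), with Clopper-Pearson 95% intervals and the number of late cells of all cells in each class. The share was 30.9% in the shallowest and 8.51% in the deepest class.

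The genes that marked the members best against all other ferret cells were led by *TMEM163*, a zinc transporter gene, *RASGEF1B*, a Ras exchange factor gene, and *NXPH4*, which encodes a secreted neurexin ligand. Between late cells and all others, 321 of 9032 genes were at least 2-fold higher in late cells (3.55%) and 738 were at least 2-fold lower (8.17%), on the scale of log2 CPM with 5 CPM added and for genes with a mean of at least 10 CPM. These counts include genes of the rule, such as *EOMES*. *TMEM163* stood at 141.5 CPM in late cells (exact Poisson 95% interval 105 to 186) and at 19.1 CPM in all other cells, 7.40 times as high (exact conditional interval 5.49 to 9.78). *NXPH4* was 8.56 times as high (5.70 to 12.4) and *RASGEF1B* 7.76 times (5.52 to 10.6). Next came *PARVG*, an actin-binding parvin that links integrins to the cytoskeleton, *CPNE4*, a calcium-dependent lipid-binding copine, and *RASGRP1*, a second Ras exchange factor. *NRN1*, encoding the membrane-anchored neurite factor neuritin, and *NEGR1*, encoding a membrane-anchored adhesion molecule, followed, then *LRATD2*, *KCTD16*, *SRRM3* and *ITGA4*. All 12 of these genes were higher in late cells in both barcode sets, and all had been chosen for their size in this comparison. Against early *EOMES* cells alone, the log2 ratios of *TMEM163*, *CPNE4* and *NEGR1* were only 0.11, 0.23 and 0.21, while that of *NXPH4* was 1.18.

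The markers proposed for the class differed little between late and early *EOMES* cells. Summed, the 4 markers other than *EOMES* were at 976 CPM in late and 771 CPM in early cells, a ratio of 1.27 (1.13 to 1.42), which was 1.15 (0.886 to 1.47) in set 1, 1.33 (1.17 to 1.52) in set 2 and 0.980 (0.770 to 1.23) in cells with at least 4000 UMIs. *NRN1* was at 578 CPM in late cells of set 1 and 702 CPM in set 2, against 422 and 514 CPM in early cells of sets 1 and 2, and both late values lay above both early values. Over both sets this was 666 CPM (584 to 756) against 497 CPM (468 to 527), a ratio of 1.34 (1.16 to 1.54). *TMEM163* was at 66.3 and 173 CPM in late cells and at 107 and 137 CPM in early cells of sets 1 and 2, so that the sets went opposite ways. The pooled ratio of *TMEM163* was 1.08 (0.786 to 1.46). *PARVG* also went opposite ways, with 85.2 and 137 CPM in late and 131 and 100.2 CPM in early cells, and a pooled ratio of 1.15 (0.814 to 1.59). *SSTR2*, a receptor for the inhibitory peptide somatostatin, rested on 17 UMIs in late cells, with a ratio of 1.27 (0.705 to 2.16).

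These 4 markers did set late cells apart from neurons and RG cells. They stood 3.39 to 13.2 times as high in late cells as in 5135 *UNC5D* neurons. These were cells with 0 *EOMES* UMIs, at least 2 *UNC5D* UMIs, none of the early genes and fewer than 3 division genes. The *UNC5D* neurons also had fewer than 3 of 6 GAD and DLX genes, and a median of 2738 UMIs. RG cells had no *EOMES* or early genes, fewer than 3 division genes and at least 5 of 10 RG genes. Inhibitory cells had no *EOMES* and at least 3 of the 6 GAD and DLX genes. *NRN1* was at 37.2 CPM in 553 RG cells and at 8.33 CPM in 804 inhibitory cells, and *TMEM163* at 3.86 and 3.97 CPM. Of the *UNC5D* neurons, 52 had at least 5 of the 10 RG genes and so also met the rule for RG cells. Cell by cell, 100 of the 109 members had a UMI of at least 1 of the 4, and 84.0% when thinned to 2000 UMIs. The thinned share was 69.9% in early cells, 28.0% in *UNC5D* neurons, 6.77% in RG cells and 3.44% in inhibitory cells. Only 1 member had all 4 markers, 15 had 3, 37 had 2, 47 had 1 and 9 had none. Members were chosen for *EOMES*, and the neurons, RG cells and inhibitory cells for having no *EOMES* UMI. The markers were chosen with earlier results of these data known, so the separation describes the members and gives their identity no support. The word late rests on the absence of the early genes, since the markers were also found in most early cells.

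**Figure D2:**
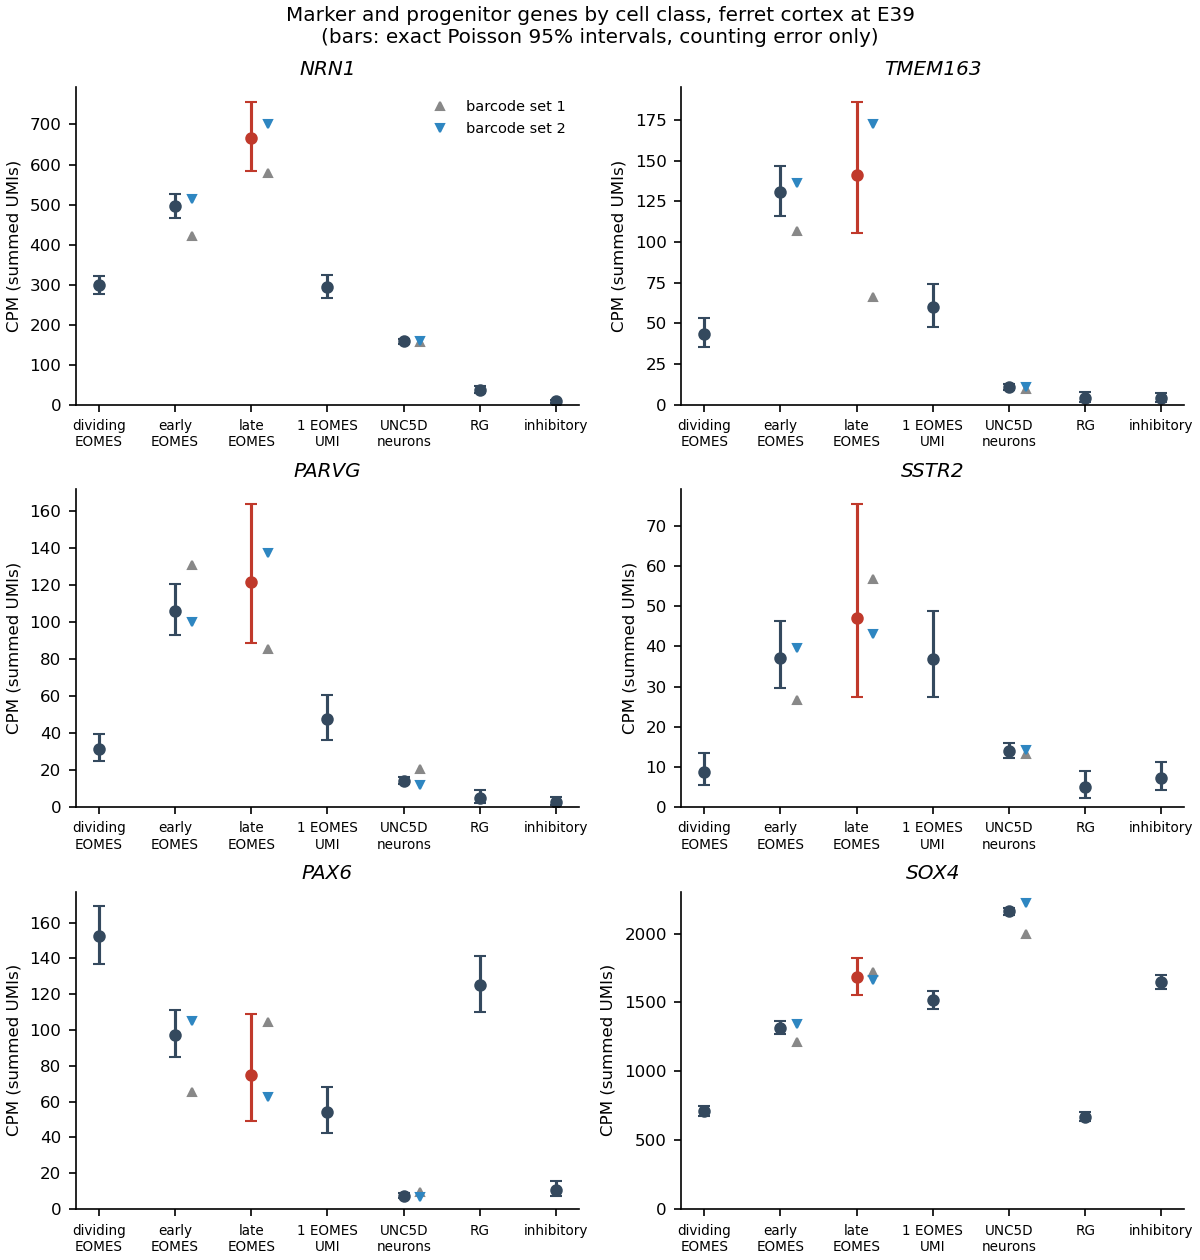
Level of 4 proposed markers and of *PAX6* and *SOX4* (y axis, CPM from summed UMIs) in 7 classes of ferret cells (x axis), with exact Poisson 95% intervals, and triangles for barcode sets 1 and 2 in late, early and *UNC5D* cells. Late *EOMES* cells (red) lie near early cells for all 4 markers and far above *UNC5D* neurons, RG cells and inhibitory cells.

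The clearest difference between late and early *EOMES* cells was in DNA replication genes. Over all genes, 84 of 8807 were at least 2-fold higher in late cells (0.954%) and 253 were at least 2-fold lower (2.87%), and the median log2 ratio was -0.02. These counts include the genes of the rule, among them the 4 early genes, which the rule made lower, while the lists below leave them out. Of 24 S phase genes, 18 passed the filter on low levels, all 18 were below early cells, and 8 were at least 2-fold lower, with a median log2 ratio of -0.98. The 8 were *PCNA*, the sliding clamp of the replication fork, *MCM3* and *MCM4* of the replicative helicase, *UHRF1*, which maintains DNA methylation at replication, *CCNE2*, a cyclin of the G1/S transition, *POLA1*, the catalytic subunit of the priming polymerase, *GINS2* and *HELLS*.

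*PCNA* was at 37.9 and 31.4 CPM in late cells of sets 1 and 2 and at 80.0 and 141 CPM in early cells. The late values were lower than the early values in both sets. Pooled, this was 33.3 CPM from 12 UMIs (17.2 to 58.1) against 129.5 CPM, a ratio of 0.257 (0.131 to 0.456). *DUT*, which removes dUTP before replication, was at 85.2 and 106 CPM in late and 194 and 168 CPM in early cells, a ratio of 0.579 (0.399 to 0.816). *MCM7*, another helicase subunit, was at 85.2 and 70.6 CPM in late and 84.8 and 97.4 CPM in early cells, a ratio of 0.788 whose interval includes 1 (0.507 to 1.18).

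Summed over the list, S phase transcripts stood at 2590 CPM in dividing *EOMES* cells, 972 CPM in early cells, 444 CPM in late cells, 436 CPM in cells with 1 *EOMES* UMI and 324 CPM in *UNC5D* neurons. Late cells were thus at 0.457 of the early level (0.386 to 0.536), at 0.487 in set 1 (12 of 14 tested genes below) and 0.455 in set 2 (18 of 18). Early cells with a single early UMI lay between, at 556 CPM, and those with 2 or more at 1133 CPM. Of the early cells, 65 (12.7%) had 10 or more S phase UMIs, against 1 member. That member had 24 of the 160 S phase UMIs of all members, and without it the ratio to early cells was 0.394 (0.329 to 0.469). When both classes were held to cells with 0 division genes, 89 late and 317 early cells, the ratio was 0.720 (0.597 to 0.862) and 11 of 13 genes were below early cells, so that the size of the difference moved by more than 1.5 times with the limit on division genes that the rule uses. Among the cells with at least 4000 UMIs, 20 late and 193 early, it was 0.452 (0.348 to 0.579).

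The 10 genes with the largest ratios below early cells were in part of the same kind. *PCLAF*, a partner of PCNA, was at 18.9 and 7.85 CPM in late and 128 and 106.5 CPM in early cells, a ratio of 0.100 (0.0271 to 0.260). *E2F1*, a transcription factor of S phase entry, had 3 UMIs in late cells and a ratio of 0.143 (0.0291 to 0.427). *GMNN*, the inhibitor of replication licensing, had 2 UMIs and a ratio of 0.125 (0.0149 to 0.462). *CENPK*, a kinetochore gene, *POLD3*, a polymerase delta subunit, *BARD1*, the partner of BRCA1, *CCDC47* and *PROX1* had 0 UMIs in late cells, which puts them at least 3.26-, 3.14-, 2.65-, 2.70- and 2.43-fold lower than in early cells against the limit of 3 UMIs. *ZFP36L1*, an RNA decay factor, had 1 UMI and a ratio of 0.0775 (0.00194 to 0.445), and *PARD3B*, a polarity gene, 1 UMI and a ratio of 0.0795 (0.00199 to 0.457). All 10 were lower in both barcode sets, but they were chosen by size. Those with 3 or fewer UMIs in late cells, all but *PCLAF*, passed the filter on low levels only through early cells. Their pooled ratio could only be below 1, and those with 0 UMIs could not be higher in either set. The agreement of the sets is thus no support for the genes that passed this way. *E2F1* and *CCND1*, a cyclin of G1, were also the 2 genes of the 16 tested in the cell cycle exit list that were at least 2-fold lower. The inhibitors *CDKN1B* and *CDKN1C* were within 2-fold, with log2 ratios of 0.40 and -0.27. The 5 tested genes of the G2 and M phase list were all below early cells (median -0.67), among them *HMGB2* at 0.460 times the early level (0.325 to 0.634).

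**Figure D3:**
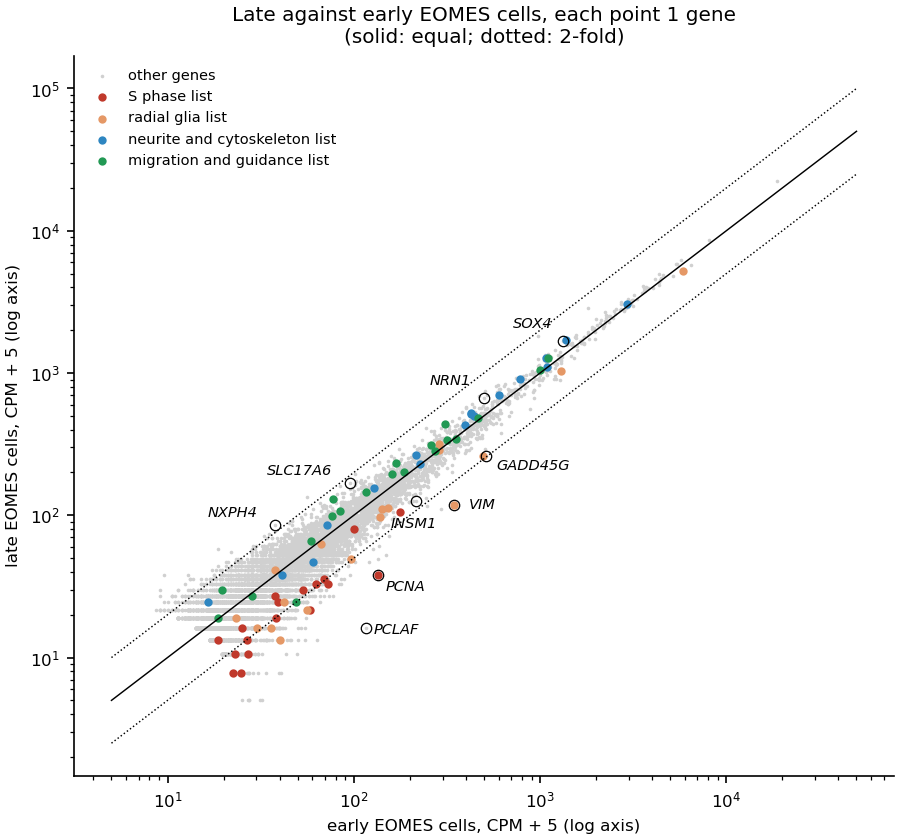
Level of each gene in late (y axis) against early (x axis) *EOMES* cells, as CPM plus 5 on log axes, for genes with a mean of at least 10 CPM, without the genes of the rule. Points of the S phase list (red) lie below the line of equal level, 8 of them at or beyond the 2-fold line, while most points of the neurite list (blue) and migration list (green) lie just above it.

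RG genes were also lower in late than in early cells. Of 22 RG genes, 18 were tested, 15 were below early cells and 4 were at least 2-fold lower, with a median log2 ratio of -0.47. The 4 were *VIM*, an intermediate filament gene of RG fibers, *HES5*, a Notch target, *SLC1A3*, a glutamate transporter gene, and *SOX9*. *VIM* was at 85.2 and 125.5 CPM in late cells of sets 1 and 2 and at 279 and 355 CPM in early cells, and the late values lay far below the early values in both sets. The pooled ratio was 0.334 (0.238 to 0.457). *SOX2*, a stem cell transcription factor, was at 0.483 (0.271 to 0.805) and *PTN*, a secreted growth factor, at 0.527 of the early level (0.421 to 0.651). *EMX2* and *LHX2*, which pattern the cortical primordium, were close to early cells, with log2 ratios of 0.00 and 0.14. Without *FABP7*, which gave most UMIs of the list in late cells, the summed level was 2530 CPM in late cells, 3507 CPM in early cells, 3950 CPM in dividing *EOMES* cells, 2280 CPM in *UNC5D* neurons and 15870 CPM in RG cells. Of the members, 45 had none of 10 RG genes and 6 had 3 or more.

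Notch genes were somewhat lower in late than in early cells. Of 18 genes, 10 were tested, 7 were below early cells and *HES5* was at least 2-fold lower (median -0.15). Their summed level was 0.774 of the early level (0.659 to 0.904), and 0.625 (0.459 to 0.834) in cells with at least 4000 UMIs. In set 1 the genes were split, 5 above and 5 below early cells, with a ratio of 0.760 whose interval includes 1 (0.550 to 1.03). The ratio was 0.785 (0.650 to 0.941) in set 2, and 0.826 (0.685 to 0.990) in cells with 0 division genes. The receptor *NOTCH1* was at 69.3 CPM in late and 83.1 CPM in early cells (ratio 0.835, 0.526 to 1.27), and the ligand *DLL1* at 22.2 and 23.4 CPM. Members were chosen for the absence of *DLL3*, and 8 UMIs of *DLL1* were found in them. *HES5* had 3 UMIs in late cells, a ratio of 0.235 (0.0475 to 0.714), and passed the filter on low levels only through early cells.

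Genes of the IPC program were in part retained and in part lower. Of 14 tested genes of this list, 9 were below early cells and 1, *MFNG*, was at least 2-fold lower, with 5 UMIs in late cells and a ratio interval of 0.132 to 1.03. *GADD45G*, a growth arrest gene that follows the proneural factors, was at 208 and 278.5 CPM in late and 494 and 509 CPM in early cells of sets 1 and 2. It was lower in late cells in both sets, and the pooled ratio was 0.510 (0.408 to 0.630). *INSM1*, a zinc finger factor of delaminating progenitors, was at 0.579 (0.415 to 0.790) and *ELAVL4*, a neuronal RNA-binding protein gene, at 0.693 (0.561 to 0.848). *PAX6* was at 74.9 CPM in late and 97.3 CPM in early cells (ratio 0.770, 0.496 to 1.15), and *NEUROD1* at 99.9 and 84.9 CPM (ratio 1.18, 0.799 to 1.69). Both went opposite ways in sets 1 and 2, with log2 ratios of 0.63 and -0.7 for *PAX6* and -0.29 and 0.39 for *NEUROD1*. *SOX4*, which promotes neuronal differentiation, was higher in late cells in both sets, with 1723 and 1663 CPM against 1212 and 1340 CPM, a ratio of 1.28 (1.17 to 1.40). *PPP1R17*, an IPC gene of the primate cortex, had 0 UMIs in late cells and 1 UMI in early cells.

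Genes of neurites and migration were slightly higher in late than in early cells, without a gene 2-fold higher. Of 17 neurite and cytoskeleton genes, all tested, 15 were above early cells, with a median log2 ratio of 0.21. *STMN2*, a microtubule regulator of growth cones, was at 1581 and 1742 CPM in late and 1027 and 1444 CPM in early cells, a ratio of 1.24 (1.14 to 1.36). Of 20 tested migration and guidance genes, 17 were above early cells (median 0.19). *EPHB1*, an ephrin receptor, was at 379 and 451 CPM in late and 213 and 327 CPM in early cells, a ratio of 1.41 (1.18 to 1.68). *CDK5R1*, the activator of the migration kinase CDK5, was at 133 and 122 CPM against 46.0 and 78.2 CPM, a ratio of 1.73 (1.22 to 2.43), and *SEMA3C*, a secreted guidance cue, had a ratio of 1.39 (1.08 to 1.77). *EFNB1*, an ephrin ligand, was the only gene of the list at least 2-fold lower, with 7 UMIs (ratio interval 0.173 to 0.943). It went opposite ways in the barcode sets, with log2 ratios of 0.33 in set 1 and -1.65 in set 2. Summed levels of the migration list were 1.13 times the early level (1.08 to 1.19), and among the cells with at least 4000 UMIs 1.02 times (0.936 to 1.11).

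Pyramidal neuron genes were divided between the classes. The list had 22 tested genes, of which 14 were above early cells, *TBR1* and *BCL11B* were at least 2-fold higher, and *ID2* was at least 2-fold lower (median 0.11). *SLC17A6*, the vesicular glutamate transporter of young excitatory neurons, was at 161 and 165 CPM in late and 55.7 and 98.6 CPM in early cells, so that both late values lay above both early values. Its ratio was 1.81 (1.33 to 2.43). *CUX2*, an upper layer factor, followed with 1.60 (1.24 to 2.04) and *NEUROD2* with 1.32 (1.00 to 1.71). *TBR1*, the T-box factor that follows EOMES, rested on 11 UMIs in late cells, a ratio of 2.46 (1.10 to 5.13), and *BCL11B* went opposite ways in the 2 sets. For *NEUROD6* the interval of the ratio to early cells included 1, at 1.00 (0.776 to 1.29). Of 20 tested synapse and channel genes, 13 were above early cells (median 0.15) and *CAMK2B*, a synaptic kinase subunit, was at least 2-fold higher, at 22.2 against 7.35 CPM. In set 2 the pyramidal neuron list was split, with 10 genes above and 12 below early cells (median -0.09), against 17 and 5 in set 1 (median 0.44).

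The 10 genes with the largest ratios above early cells were counted from 7 to 19 UMIs each in late cells, and their order has little precision. They included *INF2*, an actin formin, *ZNF746*, *GHDC*, *ABHD5*, *SAMD12*, *MYH9*, nonmuscle myosin, *GADD45A*, a stress response gene, *GUCY2C* and *MROH6*. *ZNF746* had 19 UMIs in late and 30 in early cells (ratio 3.83, 2.04 to 7.03), and *INF2* 9 UMIs in each class (6.04, 2.13 to 17.2). *INF2* and *GADD45A* had no UMI in late cells of set 1. With a limit of 30 CPM in place of 10 CPM, 13 of 5083 genes were at least 2-fold higher in late cells (0.256%) and 71 were lower (1.4%). *NXPH4* was among the few better counted genes above early cells, with 47.4 and 94.2 CPM in late and 19.4 and 35.7 CPM in early cells, a ratio of 2.47 (1.54 to 3.85). *RASGEF1B* (1.76, 1.21 to 2.53) and *RASGRP1* (1.67, 1.17 to 2.33) were on the same side, in both barcode sets.

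**Figure D4:**
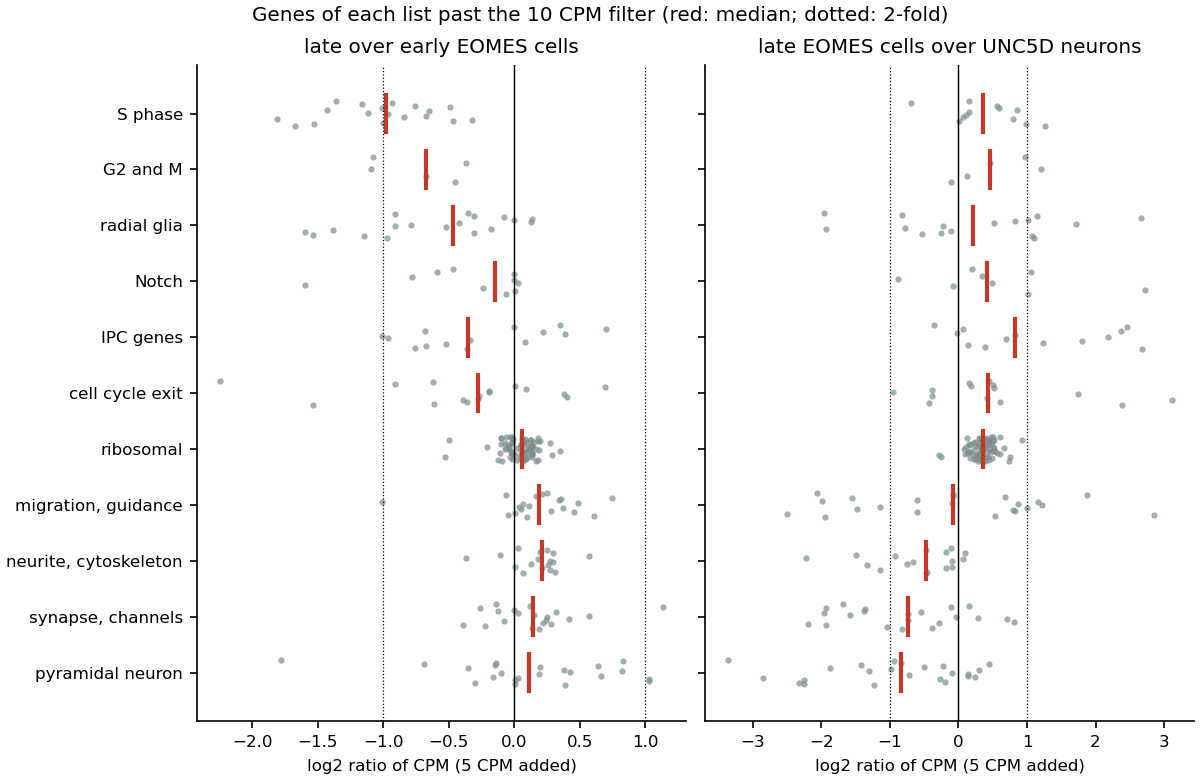
Log2 ratio of CPM, with 5 CPM added, of each tested gene (points) in 11 gene lists (rows), for late over early *EOMES* cells (left) and for late *EOMES* cells over *UNC5D* neurons (right), with list medians in red and dotted lines at 2-fold. S phase genes have the lowest median against early cells (-0.98), and pyramidal neuron genes have the lowest median against *UNC5D* neurons (-0.84).

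Against *UNC5D* neurons the late cells had higher levels of IPC program genes and lower levels of many neuronal genes, while RG genes were split. Here 344 of 8925 genes were at least 2-fold higher in late cells (3.85%) and 664 were at least 2-fold lower (7.44%), with a median log2 ratio of -0.04 over all genes. These counts include *EOMES* and *UNC5D*, on which the classes were chosen. The genes with the largest ratios above neurons included *DACH1*, a transcriptional cofactor of cortical progenitors, *TMEM163*, *CPNE4*, *CDK6*, the G1 kinase, *RARRES2*, which encodes chemerin, *RND3*, a small GTPase of migrating neurons, *FHIT* and *PTX3*. *DACH1* was at 312.5 and 435.5 CPM in late cells and at 32.0 and 19.2 CPM in *UNC5D* neurons of sets 1 and 2, with no overlap between the classes. This was 17.5 times the neuronal level (14.3 to 21.2). *CDK6* was 10.9 times as high (8.21 to 14.3) and *RND3* 7.92 times (6.49 to 9.60). Early cells had both genes at about the late level, 223 CPM for *CDK6* and 350 CPM for *RND3*, against 183 and 338 CPM in late cells. The log2 ratios of late to early cells were -0.11 for *DACH1* and *FHIT*, 0.11 for *TMEM163* and 0.23 for *CPNE4*. They were -0.1 for *RARRES2* and 0.56 for *PTX3*.

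Progenitor regulators were among the genes above *UNC5D* neurons. *PAX6* was 10.1 times as high (6.38 to 15.3) and *GADD45G* 4.85 times (3.88 to 6.01), and 6 of 13 tested IPC program genes were at least 2-fold higher and none lower. Of 16 tested RG genes, 8 were above and 8 below neurons (median 0.20), with 6 at least 2-fold higher, *SOX2* and *VIM* among them, and *ID4* and *PTPRZ1* at least 2-fold lower. *CCND2*, a G1 cyclin, was 6.93 times as high (4.59 to 10.1). The receptor *NOTCH1* was 11.02 times as high (6.83 to 17.1), *GLI2*, a transcription factor of SHH signalling, 10.4 times (6.58 to 15.8) and *GLI3* 3.66 times (2.57 to 5.07). These were the 2 genes at least 2-fold higher among 13 tested BMP and SHH genes, of which *ID2*, *ID4*, *ACVR1* and *ACVR2A* were at least 2-fold lower (median 0.08). Early cells had *CCND2* and *GLI3* above the late level, with log2 ratios of late to early cells of -0.61 and -0.42. The 76 tested ribosomal protein genes were above neurons in 74 cases, with a median log2 ratio of 0.36 and no gene at 2-fold.

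Pyramidal neuron genes were lower in late cells than in *UNC5D* neurons, with 18 of 23 tested genes below and 9 at least 2-fold lower (median -0.84). *NEUROD6* was at 312.5 and 165 CPM in late cells and at 938.5 and 1049 CPM in neurons, 0.204 times the neuronal level (0.161 to 0.256). *FEZF2*, a factor of deep layer neurons, had 0 UMIs in late cells and was at least 3.75-fold lower. *SLC17A6* was no lower than in neurons, with a ratio of 1.24 (0.943 to 1.61). Of 21 tested synapse and channel genes, 9 were at least 2-fold lower and 17 were below neurons (median -0.74), among them the adhesion gene *NLGN1*, at 0.258 (0.218 to 0.303). The neurite list was also below neurons (15 of 17, median -0.47). The genes with the largest ratios below neurons were *OSBPL10*, *KCNN2*, a calcium-activated potassium channel, *ID2*, an inhibitor of bHLH factors, *ERBB4*, *GRIK1*, a kainate receptor, *B3GALT1*, *PRKG1* and *RASGRF2*. *ID2* had 3 UMIs in late cells, 0.0626 times the neuronal level (0.0129 to 0.183), and *OSBPL10* and *KCNN2* had none, at least 8.001- and 7.37-fold lower. *FEZF2*, *ID2*, *OSBPL10* and *KCNN2* passed the filter on low levels only through the neurons.

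Migration genes were divided. *RND3*, *PCDH9*, an adhesion protocadherin, *DCC*, the netrin receptor, *LRP8*, a reelin receptor, and *DCX*, a microtubule protein of migrating neurons, were at least 2-fold higher in late cells than in *UNC5D* neurons. *NRP1*, a semaphorin receptor, *RELN*, *DAB1*, the reelin adaptor, *FLRT2*, *PLXNA4*, the coreceptor of NRP1, and *DCLK1* were at least 2-fold lower, as was *UNC5D*, which chose the neurons. *PCDH9* was at 729 and 1487 CPM in late cells and 262 and 375 CPM in neurons, 3.69 times as high (3.35 to 4.06), and *DAB1* had a log2 ratio of -1.99. In the reelin pathway the receptor gene *LRP8* thus stood above and the adaptor gene *DAB1* below the neurons.

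Transcripts of progenitor and neuronal genes were detected in the same members. *UNC5D* was detected in 50 members, of which 14 also had *PAX6*, and 10 had *PAX6* alone. *NEUROD1* and *PAX6* were found together in 5 members, *NEUROD1* without *PAX6* in 21, *PAX6* without *NEUROD1* in 19, and neither in 64. Both *NEUROD2* and *SOX2* were found in 6 members. These counts have to be read beside the shares in classes of other identity. *UNC5D* had a UMI in 45.9% of members (37.0% after thinning to 2000 UMIs) and in 29.0% of inhibitory cells (23.7%) and 20.1% of RG cells (14.0%). *PAX6* had a UMI in 22.0% of members (14.8%) and 2.20% of *UNC5D* neurons (1.47%), and *NEUROD1* in 23.9% of members (18.1%) and 2.11% of inhibitory cells (1.19%). Of 9 pyramidal neuron genes, 45 members (41.3%) had 3 or more and 14 had none, while 14.1% of RG cells had 3 or more. The medians were 2874 UMIs per member, 2738 in *UNC5D* neurons, 3399 in RG cells and 2802 in inhibitory cells. The part of free RNA and of doublets in the cells with both kinds of transcripts was not tested. Members with 3 to 4 *EOMES* UMIs had *NEUROD1* at 150.2 CPM (94.1 to 227) and those with 2 *EOMES* UMIs at 66.2 CPM (35.2 to 113), intervals that overlap, and *NRN1* was at 703 and 672 CPM.

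The cells with 1 *EOMES* UMI and no early gene, just outside the rule, were between late cells and *UNC5D* neurons for some genes and lists and not for others. *NRN1* was at 294 CPM in them, *TMEM163* at 59.9 CPM and *PAX6* at 54.0 CPM, each below the late level and above the neuronal level. *NEUROD6* was at 594 CPM, above the late and below the neuronal level. Summed pyramidal neuron genes were also between, at 5219 CPM against 3972 CPM in late cells and 7346 CPM in neurons. The IPC program list, at 2822 CPM, was below both late cells (3506 CPM) and neurons (3009 CPM), as was the migration list, at 4603 CPM against 5720 and 5361 CPM. Inhibitory markers, at 295 CPM, were above both late cells (77.7 CPM) and neurons (184 CPM), as were vascular markers, at 115 CPM against 22.2 and 55.3 CPM. This class had a median of 2640 UMIs.

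Other pathways had few genes 2-fold apart from early cells. Of 8 tested WNT genes and 11 tested adhesion genes around the parvins none was 2-fold apart (medians -0.22 and -0.20), nor was any of 10 tested genes of somatostatin and G protein signalling (median 0.14) or of 6 tested neurotrophin and neuritin related genes (median -0.08). Of 13 tested BMP and SHH genes, *ID2*, with 3 UMIs, and *GAS1*, a coreceptor for SHH, with 2 UMIs, were at least 2-fold lower (ratios 0.204, 0.0412 to 0.615, and 0.281, 0.0330 to 1.08; list median -0.01). Both passed the filter on low levels only through early cells, as did *FOS* below. Of 6 tested immediate early genes, which tissue dissociation can induce, *FOS* (2 UMIs, ratio 0.146, 0.0174 to 0.543) and *EGR1* (4 UMIs, 0.372, 0.0984 to 0.999) were at least 2-fold lower (median -0.18). The 76 tested ribosomal protein genes had a median log2 ratio of 0.06 to early cells.

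Transcripts of other lineages were few among members. None had 3 or more of 6 GAD and DLX genes, and 5 had at least 1 UMI of them. Of 14 inhibitory markers 7 were at 0, including *GAD2*, *DLX2* and *SLC32A1*, and the list summed to 77.7 CPM. Of 10 microglial markers 8 were at 0 (*CSF1R*, *CX3CR1* and *PTPRC* among them), of 11 vascular markers 6 (*PECAM1*, *CDH5* and *KDR* among them), and all 5 markers of red blood cells. *OLIG2*, *PDGFRA* and *SOX10* of the oligodendrocyte lineage and *EGFR* had 0 UMIs. When the 11 members with 2 or more UMIs of inhibitory, microglial or vascular markers were left out, the S phase ratio to early cells was 0.386 (0.318 to 0.466).

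The same rule found 1728 late and 3138 early cells in the mouse table. Late cells made up 37.5% of late and early cells in mouse set 1 and 32.5% in mouse set 2. Of 7806 genes tested in mouse set 1, 0.423% were at least 2-fold higher and 0.295% lower in late cells, and of 7966 genes in mouse set 2, 1.29% and 1.12%. S phase genes lay below early cells in 16 of 16 cases in mouse set 1 (median -0.57) and in 8 of 10 in mouse set 2 (median -0.19). IPC program genes were below in 14 of 16 and 12 of 16 cases, and *Gadd45g* was at 0.288 (0.263 to 0.317) and 0.175 (0.154 to 0.199) of the early level.

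The neuronal lists had higher medians in mouse than in the pooled ferret cells. The median log2 ratio of pyramidal neuron genes was 0.64 and 0.47 in mouse sets 1 and 2, against 0.11 in ferret (0.44 in ferret set 1 and -0.09 in ferret set 2, so that set 1 came near mouse set 2). That of migration genes was 0.61 and 0.75, against 0.19 in ferret (0.21 and 0.24). *Unc5d* was 2.03 (1.89 to 2.18) and 2.31 (2.14 to 2.50) times as high in late as in early mouse cells, and 1.07 times in ferret (0.877 to 1.31). *Nrn1* was 1.62 (1.52 to 1.73) and 1.94 times as high (1.80 to 2.09), *Slc17a6* 1.79 and 2.41 times, and *Nxph4* 1.97 and 1.89 times. Ribosomal protein genes went the other way, with medians of -0.21 and -0.24 in mouse and 0.06 in ferret. *PARVG*, *CPNE4* and *RASGRP1*, markers of the ferret cells, were each under 1 CPM in both mouse classes. The mouse cells were labeled at the ventricle and sorted, and they include Smo CKO cells. The species also differ in age and library, so that these cannot be told apart. The 2 mouse sets were not assigned a genotype and may differ in it, so they are not repeats of each other. Early cells had *Cdk6* at 207 CPM in mouse set 1 and at 47.2 CPM in mouse set 2.

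**Figure D5:**
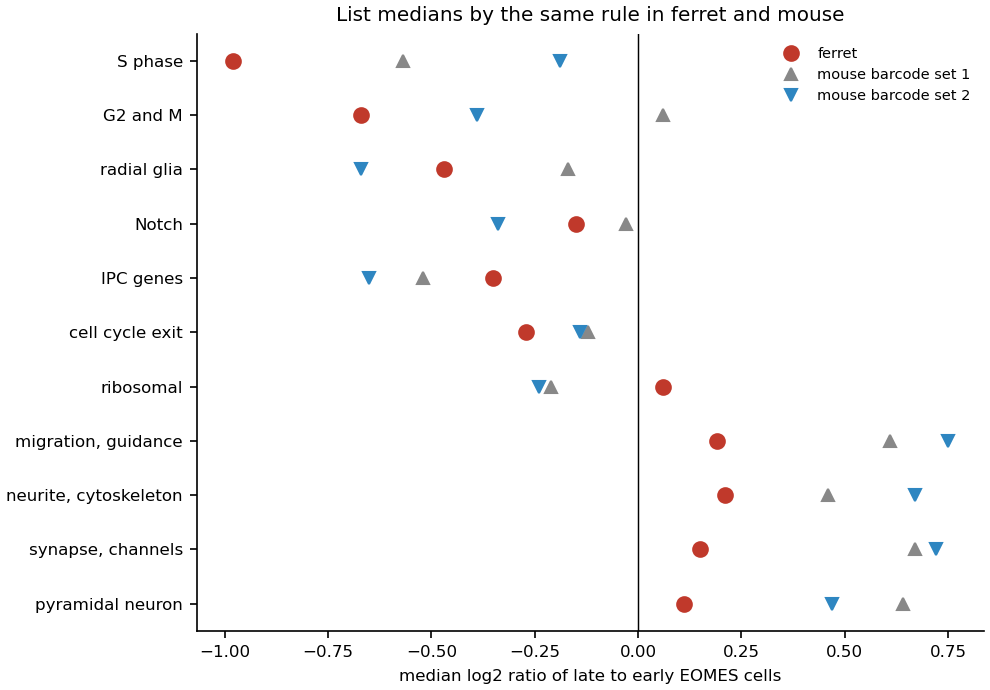
Median log2 ratio of late to early *EOMES* cells (x axis) for 11 gene lists (rows) in ferret (red) and in the 2 mouse barcode sets (triangles). The S phase median is below 0 in all 3 (-0.98, -0.57 and -0.19), and the medians of the 4 neuronal lists are above 0 in all 3, with both ferret sets pooled.

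Gene by gene, the direction in mouse was compared with that in ferret. Of the ferret genes at least 2-fold lower in late cells that could be matched by symbol and tested, 92 of 145 (63.4%) lay below early cells in mouse set 1 and 89 of 139 (64.0%) in mouse set 2, while among all genes below early cells in ferret these shares were 48.8% and 50.5%. Of those at least 2-fold higher, 16 of 26 (61.5%) and 15 of 26 (57.7%) lay above early cells, against 62.7% and 61.5% among all genes above early cells in ferret. No test was made of these shares.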

How the data were processed

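Per the labels and methods, cortical cells were sequenced on a droplet platform, and the authors deposited 1 table per species of whole-number UMI counts per gene and cell, not normalized. The submitters' processing notes name Cell Ranger, StringTie, Seurat 3 and mm10, and the ferret build is not given in the sources used here. The ferret table holds 22008 genes and 23482 cells, the number that the study gives after its filter at 750 to 5000 genes, although 241 of them have fewer than 750 genes. The cells with at least 750 genes had 86661849 UMIs in all, with a median of 3064 (2556 in set 1 and 3563 in set 2).

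Counts were summed over the cells of a class and divided by all UMIs of the class and scaled to 1e6 (CPM). Genes with a mean of at least 10 CPM over the 2 classes were compared as log2 of CPM plus 5, which understates the ratio of low genes, while ratios were taken from CPM directly. A gene was counted as higher or lower at 2-fold. A gene with 3 or fewer UMIs in late cells, at most 8.32 CPM, could pass the filter only through the other class, so its direction was fixed. Counts over all genes against early, *UNC5D* and all other cells include the genes of the rule, while counts of the lists leave them out. CPM have exact Poisson, ratios exact conditional binomial and shares Clopper-Pearson 95% intervals, all for counting error only, and a fold against 0 UMIs was set against 3 counts. Shares of cells were also computed after thinning to 2000 UMIs. With 1 embryo no test was made. No doublet caller was run, and 1 member had at least 3 times the median UMIs of all cells. The members and the gene lists were chosen with earlier results of these data known. Named genes were the 12 with the highest log2 ratio to all other cells, 10 in each direction against early and 8 against *UNC5D* cells, with a UMI in at least 5% of the cells of the higher class and leaving out identifiers without a symbol and the genes of the rule, plus up to 6 per list with the highest level or largest ratio and list members at 0 that define a cell type. *NXPH4*, *RASGEF1B* and *RASGRP1* against early cells, and further list members named as 2-fold apart, were added after their values were seen. Some genes that these rules select are not reported here. Mouse genes were matched by symbol (12151 shared). The procedure was tested on simulated counts. Scripts ran under Python 3.11.15 with scipy 1.17.1 for the intervals, numpy 2.4.6 and pandas 2.3.3 for the sums, and matplotlib 3.10.9 for plots.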

Additional observations from a re-analysis of the deposited data

Results flagged for a closer look

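Among the 10 genes with the largest ratios in each direction against early *EOMES* cells, 2 had log2 ratios of opposite sign in the species. This held in both ferret and both mouse barcode sets. The difference between species was not tested, and most of the mouse values of these 2 genes were within counting error of no difference. *MYH9*, nonmuscle myosin, had a log2 ratio of late to early cells of 1.37 in ferret (1.19 in set 1 and 1.43 in set 2, from 11 UMIs in late cells), and of -0.03 and -0.46 in mouse sets 1 and 2. *CCDC47*, an endoplasmic reticulum gene, had -2.46 in ferret (-2.14 and -2.53, with 0 UMIs in late cells), and 0.20 and 0.07 in mouse. With 0 UMIs in late cells *CCDC47* could not be higher in either ferret set, so the agreement of those sets is no support. The mouse ratios of *CCDC47* were 1.169 (0.9744 to 1.399) in set 1 and 1.059 (0.8584 to 1.299) in set 2. That of *MYH9* was 0.9706 (0.7005 to 1.331) in mouse set 1. These intervals include 1, so the mouse sign is not settled there. Only for *MYH9* in mouse set 2, with a ratio of 0.6426, did the interval lie below 1. *ID2*, named from the lists, also had opposite signs, with -1.78 in ferret (-1.01 in set 1 and -1.95 in set 2) and 0.46 in both mouse sets. Its mouse ratios were 1.386 (1.308 to 1.470) in set 1 and 1.38 (1.306 to 1.458) in set 2, with both intervals above 1. In ferret, *ID2* passed the filter on low levels only through early cells.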

How the results depend on the processing

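The counts of genes past 2-fold depended on the settings, since many late values are a few UMIs. Of the log2 ratios of named genes recomputed under the alternatives, 483 stayed within the counting interval of the reported value, 96 moved outside it and 4 reversed. Given as higher and lower genes, the reported counts were 84 and 253 against early cells, 344 and 664 against *UNC5D* cells, 321 and 738 against all other cells, and 16 and 92 (mouse set 1) and 15 and 89 (mouse set 2) genes of shared sign. With 1 CPM added they were 223 and 439 against early cells and 44 and 150 and 40 and 158 for shared sign. With 20 CPM added they were 3 and 41, 149 and 264, 135 and 313, 0 and 12, and 0 and 13. Without a filter they were 182 and 671 against early cells, 1096 lower against *UNC5D* cells, 1367 lower against all others, 59 and 301, and 46 and 323. At 30 CPM they were 13 and 71, 182 and 319, 194 and 315, 4 and 23, and 4 and 24. In barcode set 1 alone they were 782 and 897 against early cells, 770 higher against *UNC5D* cells and 789 higher against all others, with a late share of 0.353%. In set 2 alone they were 185 and 384 against early cells. With at least 3 *EOMES* UMIs (45 late cells, a share of 0.194%) they were 421 and 599, 620 higher against *UNC5D* cells, 599 higher against all others, 104 and 182, and 106 and 183. With 0 division genes (89 late cells, 0.383%) they were 139 higher against early cells and 29 and 28 higher of shared sign. In cells with at least 4000 UMIs (20 late cells, 0.267%) they were 506 and 878, 673 and 1016, 591 higher against all others, 116 and 258, and 107 and 281. Higher genes against early cells numbered 127 without cells with other lineage transcripts, 136 with cells weighted equally, and 130 against early cells with at least 2 early UMIs, an alternative chosen after seeing the data. The study's upper limits on genes and mitochondrial share moved none of these. The log2 ratios to early cells that reversed were those of *INF2* (-0.98) in set 1, *GADD45A* (-1.22) with at least 3 *EOMES* UMIs, and *ZNF746* (-2.32) and *GADD45A* (-0.97) in cells with at least 4000 UMIs. The settings with fewer late cells rest on fewer UMIs, and otherwise the cause was not tested. No paired analysis was possible because the barcode sets could not be tied to samples and come from 1 embryo. Depth limits the late cells to 8.32 CPM per gene at 3 UMIs.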
